A study of Mus musculus with 4 samples.

Results

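The comparison described here set primary mouse keratinocytes grown with DAPT against keratinocytes grown without it, both harvested on day 4. It rests on 2 of the 4 Illumina bead arrays of the study, 1 for each condition, and spans every gene that at least 1 of these arrays detected. With a detection p-value under 0.01 as the limit, that gave 9913 of the 16593 genes on the array. The genes were chosen by detection and not by the size of their difference. Of them, 8713 were detected on both arrays, 899 without DAPT only and 301 with DAPT only. For a gene detected on only 1 array, this choice favours a higher value on that array. The 6 genes just inside the limit, at a detection p of 0.00889, had measured differences from 0.33 to 0.66 on the log2 scale, and the 11 just outside it, at 0.0101, from -0.48 to 0.22.

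The cells were keratinocytes taken from neonatal mice of the 129 background that carried a Pou5f1::GFP transgene, a green fluorescent reporter of the pluripotency gene Pou5f1. All cultures had been transduced with transcription factors used for reprogramming, which the sources used here do not name, and all were kept in SFM medium. The DAPT cultures received 2.5 uM of the compound, and the other 2 groups of the study were harvested on day 7, without and with the same dose. Groups were read from the sample titles, since the treatment field names DAPT for all 4 samples. Each group had 1 array, and the labels do not say whether animals were pooled or cultures were independent. No difference below therefore has a replicate error or a p-value, and each is the size of a difference between 2 arrays.

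DAPT inhibits gamma-secretase, the membrane protease that cuts a Notch receptor after ligand binding and frees its intracellular part. That part enters the nucleus, joins the DNA-binding protein RBPJ and switches on targets such as the Hes and Hey genes. In the epidermis, Notch signalling is known to accompany the step from basal to spinous cells and to raise the cell cycle inhibitor p21. Above the spinous layer, keratinocytes assemble the cornified envelope, a sheet of proteins cross-linked by transglutaminases, from involucrin, loricrin, the small proline-rich (Sprr) proteins and the late cornified envelope (Lce) proteins.

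The untreated day 4 array stood apart from the other 3. Its log2 signals correlated with theirs at r of 0.945 to 0.964 over 15193 probes, against 0.975 to 0.981 among the other 3 arrays. It was also the brightest, with a mean intensity of 472 against 365 on the DAPT array of day 4, and it detected 14145 of 25697 probes against 12669. Quantile normalization removed the difference in overall brightness. Since this array is the only control of day 4, no comparison remains without it.

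Markers of keratinocytes were present on both arrays. Of 8 keratinocyte markers, 8 were detected with and without DAPT, from Krt15 at 6.02 and 7.06 (log2 normalized signal without and with DAPT) to Krt14 at 14.28 and 14.54. Of 5 markers of differentiated keratinocytes 4 were detected on each array, and Krt1 on neither. All 7 fibroblast markers were detected as well, with a summed deposited intensity of 16497 without DAPT and 13099 with it, beside 32274 and 35187 for the keratinocyte markers. These sums are not normalized, and the untreated array was the brighter one over all probes, as given above. Melanocyte markers were detected for 4 of 5 genes without DAPT and 3 with it, with Tyr on neither array, and summed to 661 and 383. Of 4 leukocyte markers only Cd3e was detected on either array, and of 5 endothelial markers 3 and 2 were detected. The parts of other cell types in the differences below were not tested. In RNA from whole cultures, fewer cells of a type and less of a transcript per cell cannot be told apart.

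On day 4, 370 of the 9913 genes (3.73%) were at least 2-fold higher with DAPT and 352 (3.55%) at least 2-fold lower, together 7.28%. The shares of 3.73% and 3.55% are the baseline for the counts of list members below. Differences ran from 3.47 for Stfa1 to -2.66 for Igfbp3 on the log2 scale, with a median over all genes of 0.08 and quartiles of -0.26 and 0.42. At 3-fold or more there were 37 higher and 57 lower genes, and at 4-fold or more 13 and 14. Where the dimmer array did not detect a gene, its difference is a lower bound against the lowest detected signal of that array or the gene's own signal, whichever was higher. Such bounds make up 34 of the higher and 47 of the lower genes. The scaling of the arrays bears on this balance: with median scaling, which moved the median of all genes by -0.18, 175 genes were higher and 673 lower.

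**Figure D1:**
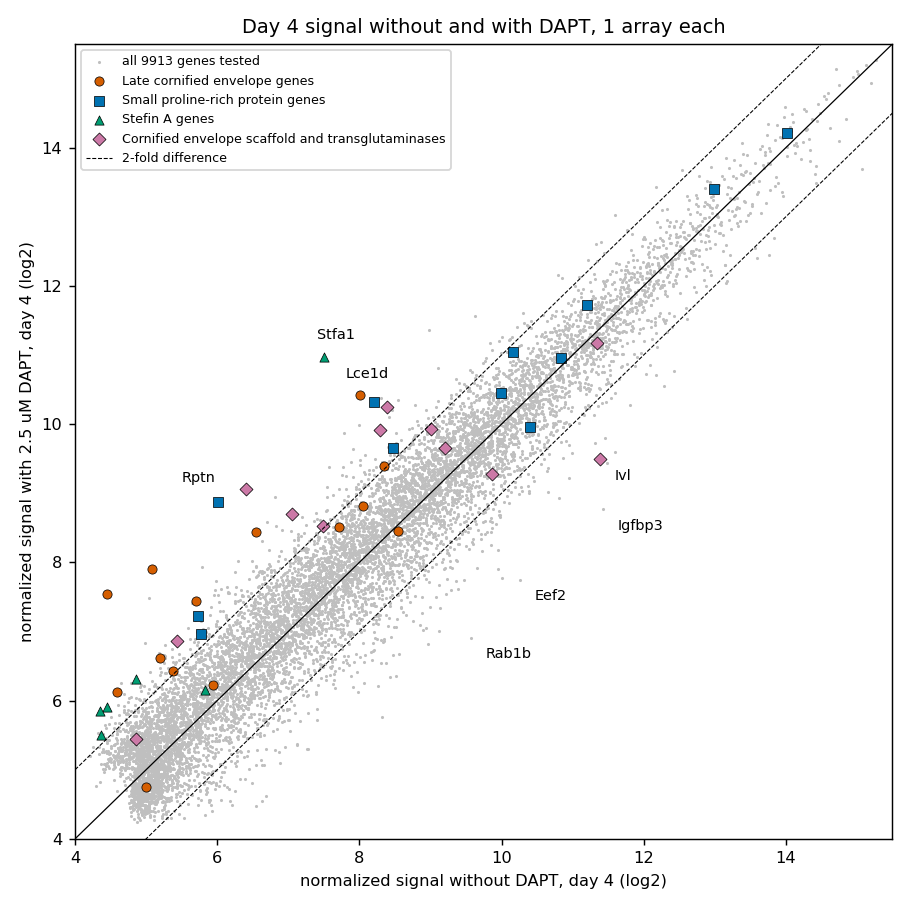
Normalized log2 signal of each of the 9913 genes without DAPT (horizontal axis) and with 2.5 uM DAPT (vertical axis) on day 4, 1 array each, with 4 gene lists in colour and dashed lines at a 2-fold difference. Most cornified envelope, Lce, Sprr and stefin genes lie above the diagonal, while Ivl lies below it with Igfbp3, Eef2 and Rab1b.

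Genes of the cornified envelope and of the epidermal surface stood out among the highest differences: of the 15 highest genes, 6 encode Sprr or Lce proteins or repetin. In the Lce list, 9 of 14 detected members passed 2-fold upward and 0 downward, and the median was 1.23. Of these 9, Lce1a2 and Lce1l were tested only because the DAPT array of day 4 detected them, which favours a higher value. The Sprr list had 5 of 12 higher and 0 lower and a median of 0.70, and the list of envelope scaffold proteins and transglutaminases had 6 of 12 higher and 1 lower, with a median of 0.99. Over all genes tested the median was 0.08, with 3.73% of genes at least 2-fold higher and 3.55% lower. With median scaling the medians of these 3 lists were 1.01, 0.73 and 0.72.

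The Lce proteins are small, cysteine-rich and made late in the granular layer. Lce1d, the brightest of those above 2-fold, had a log2 signal of 8.01 without and 10.42 with DAPT on day 4, and of 10.65 and 11.17 on day 7. Lce1c stood at 5.09 and 7.90 on day 4, and at 7.24 and 7.34 on day 7. The untreated day 4 array was thus the low one of the 4 for both genes. Lce1a2 was not detected without DAPT on day 4, was at 7.54 with DAPT, and was therefore at least 7.55-fold higher. It was detected on both day 7 arrays, at 7.23 and 7.70. Lce1f was 3.69-fold higher with DAPT on day 4, Lce1b 3.32-fold, Lce1i 2.65-fold, and Lce3a and Lce3b 2.06-fold each, while Lce1l was at least 2.83-fold higher. Lce3c at 0.80, Lce1g at 0.77, Lce1h at 0.29, Lce1m at -0.08 and Lce1e at -0.25 were under 2-fold. The Lce genes are close copies of each other, as are the Sprr2 genes, and whether each probe reads only its own gene was not tested.

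The Sprr proteins are cross-bridging proteins of the envelope that differ in how widely epithelia use them. Sprr2i had a log2 signal of 6.02 without and 8.88 with DAPT on day 4, and of 7.45 and 8.27 on day 7. Sprr1b stood at 8.21 and 10.31 on day 4, and at 7.47 and 8.74 on day 7, so the DAPT array of day 4 was the highest of the 4 for both genes. Of the others, Sprr2j-ps, whose symbol marks a pseudogene, was 2.82-fold, Sprr2b 2.28-fold and Sprr2k 2.26-fold higher with DAPT. The brightest members were under 2-fold. Sprr2d, at 14.02 and 14.21, differed by 0.19, Sprr2g by 0.40 and Sprr1a, at 10.83 and 10.95, by 0.12. Sprr2e stood at 0.88, Sprr2f at 0.52, Sprr2a1 at 0.45 and Sprr3 at -0.44.

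Among the scaffold genes, involucrin was the only one of 12 at least 2-fold lower. Ivl had a log2 signal of 11.39 without and 9.50 with DAPT on day 4, and of 9.22 and 8.46 on day 7. It was 3.71-fold lower with DAPT on day 4, and the untreated day 4 array was the highest of the 4. Rptn, which encodes repetin, a calcium-binding envelope protein, stood at 6.40 and 9.06 on day 4 and at 8.71 and 10.18 on day 7. A further probe of Rptn differed by 2.28 where the one used differed by 2.66. Asprv1, a protease that processes filaggrin, was 3.63-fold higher with DAPT. Cdsn, the corneodesmosome protein that holds corneocytes together, was 3.13-fold higher, with its other probe at 1.33. Cnfn, encoding cornifelin, was 3.08-fold higher, Tchhl1, a trichohyalin-like gene, 2.69-fold, and Casp14, the caspase of cornification, 2.06-fold. Lor, which encodes loricrin, differed by 0.93, Tgm5 by 0.58, Scel, encoding sciellin, by 0.45, Ppl, encoding periplakin, by -0.18 and Tgm1, the main envelope transglutaminase, by -0.58.

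Most of these genes lie in the epidermal differentiation complex of mouse chromosome 3. Of 49 genes on the array between S100a1 and S100a10, 42 were tested. Of these, 19 (45.2%, against 3.73% of all genes) were at least 2-fold higher with DAPT, and Ivl and Pglyrp3 at least 2-fold lower. Of the 19, Lce1a2 and Lce1l were tested only through the DAPT array, and of the lower genes Pglyrp3 only through the untreated one. This set was drawn after its values had been seen. The median of the 42 was 0.84 on day 4 and 0.22 on day 7. Prr9, a proline-rich gene of the complex, stood at 4.98 without and 6.83 with DAPT on day 4, and Pglyrp3, a peptidoglycan recognition protein gene, at 5.85 and, not detected, at 4.68. At the ends of the complex, among S100 genes, S100a16 differed by -0.99 and S100a9 by 1.93.

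**Figure D2:**
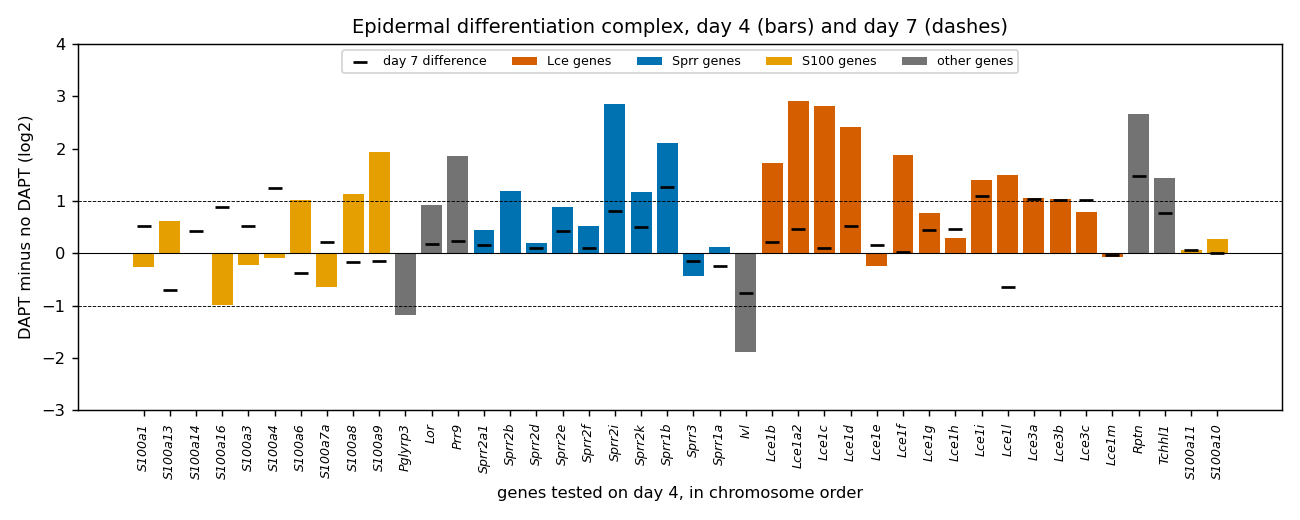
Difference with DAPT (log2) of the 42 tested genes of the epidermal differentiation complex in chromosome order, on day 4 (bars, coloured by family, bounds where 1 array did not detect the gene) and on day 7 (black dashes, for genes tested there), with dashed lines at a 2-fold difference. Bars reach 2.92 for Lce1a2, most Lce and Sprr bars are above 0, and Ivl at -1.89 is the lowest.

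Promoters of 4 genes of the complex are shown because these genes stood far apart with DAPT, with Rptn, Sprr1b and Sprr2i higher and Ivl lower, and because each holds the motif of AP-1, a transcription factor of epidermal differentiation. The sequences are from RefSeq, build GRCm38.p6, from 250 bases before to 50 bases after the start of the gene, written 5′ to 3′ on the strand of the gene, with the motif TGANTCA in capitals. The stretches are chr3:93393449-93393748 (plus strand) for Rptn, chr3:92438730-92439029 (minus strand) for Sprr1b, chr3:92407741-92408040 (plus strand) for Sprr2i and chr3:92573686-92573985 (minus strand) for Ivl. The motif reads alike on both strands.
Rptn: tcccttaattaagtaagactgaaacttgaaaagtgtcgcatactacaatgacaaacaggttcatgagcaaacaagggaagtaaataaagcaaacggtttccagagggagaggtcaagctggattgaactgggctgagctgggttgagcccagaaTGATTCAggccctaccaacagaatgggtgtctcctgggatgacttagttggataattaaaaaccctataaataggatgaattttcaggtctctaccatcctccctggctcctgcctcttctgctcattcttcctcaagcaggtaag
Sprr1b: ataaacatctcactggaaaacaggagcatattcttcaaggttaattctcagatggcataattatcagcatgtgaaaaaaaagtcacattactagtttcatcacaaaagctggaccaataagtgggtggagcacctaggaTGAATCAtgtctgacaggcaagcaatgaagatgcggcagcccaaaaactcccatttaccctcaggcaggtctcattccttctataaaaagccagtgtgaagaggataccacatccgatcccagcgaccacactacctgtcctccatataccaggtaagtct
Sprr2i: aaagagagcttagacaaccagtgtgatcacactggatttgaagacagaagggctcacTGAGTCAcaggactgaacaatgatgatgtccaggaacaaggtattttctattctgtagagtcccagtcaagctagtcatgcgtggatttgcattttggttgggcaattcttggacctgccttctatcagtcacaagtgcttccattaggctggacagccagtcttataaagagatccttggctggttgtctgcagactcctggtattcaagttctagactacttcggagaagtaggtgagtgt
Ivl: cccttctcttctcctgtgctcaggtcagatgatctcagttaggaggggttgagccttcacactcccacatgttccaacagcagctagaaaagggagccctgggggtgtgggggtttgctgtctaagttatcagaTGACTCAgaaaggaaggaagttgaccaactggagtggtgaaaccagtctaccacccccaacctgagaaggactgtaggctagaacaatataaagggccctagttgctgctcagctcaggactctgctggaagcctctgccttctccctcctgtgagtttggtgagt
The first base of the motif lay at -96 from the start in Rptn, at -111 in Sprr1b, at -193 in Sprr2i and at -116 in Ivl. A motif of these letters was in the promoters of 8 of 10 Sprr genes, 5 of 11 scaffold genes, 1 of 6 stefin genes and 0 of 13 Lce genes that had an entry. Of all 27025 promoters of the table, 1 per gene, 7.93% held it, and 5.76% of those of the tested genes. It was in 8.61% of the promoters of the higher genes and 5.94% of those of the lower ones. These matches describe letters and not binding.

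The promoters of Lce1c and Lce1d are shown because these genes had differences of 2.81 and 2.41 and share a run of 16 bases, given in capitals, upstream of their start. They are chr3:92678997-92679296 (plus strand) for Lce1c and chr3:92687161-92687460 (minus strand) for Lce1d, of the same table and build.
Lce1c: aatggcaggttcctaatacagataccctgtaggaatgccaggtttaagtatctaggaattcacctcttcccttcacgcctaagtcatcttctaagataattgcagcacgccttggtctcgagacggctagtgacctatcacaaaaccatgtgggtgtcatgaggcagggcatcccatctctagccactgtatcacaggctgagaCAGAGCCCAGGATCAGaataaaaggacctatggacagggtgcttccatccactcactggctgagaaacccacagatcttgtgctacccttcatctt
Lce1d: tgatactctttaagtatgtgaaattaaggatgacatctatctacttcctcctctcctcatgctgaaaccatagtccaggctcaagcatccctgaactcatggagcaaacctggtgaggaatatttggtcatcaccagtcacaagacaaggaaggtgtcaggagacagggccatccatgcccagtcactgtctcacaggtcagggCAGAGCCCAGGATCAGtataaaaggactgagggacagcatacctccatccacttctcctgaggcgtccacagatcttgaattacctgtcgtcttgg
The same run was found in the promoter of Lce1b, which was 3.32-fold higher with DAPT, and in no other of the 27025 promoters. Its reverse complement was in 0 promoters.

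The stefin A genes, which encode inhibitors of cysteine proteases of the cathepsin kind, held the highest gene of the comparison. Stfa1 had a log2 signal of 7.50 without and 10.98 with DAPT on day 4, an 11.1-fold difference, and of 6.89 and 9.31 on day 7. It was the only one of the 15 highest genes that was also over 4-fold higher with DAPT on day 7. Csta3 stood at 4.86 and 6.31 on day 4, and Stfa2 and Stfa3 were not detected without DAPT and at least 2.45-fold and 2.34-fold higher. Csta2 was at least 1.85-fold higher and Csta1 differed by 0.31. The median of the 6 genes was 1.26, with 4 of them above 2-fold (66.7%, against 3.73% of all genes). Stfa2, Stfa3 and Csta2 were tested only because the DAPT array detected them. That selection favours a higher value with DAPT, so their sign does not show the direction of the list. With an offset of 50 in the normalization, Csta3, Stfa2 and Stfa3 fell under 2-fold, at 0.85, 0.69 and 0.65. Stfa1 stayed above 2-fold under each alternative normalization, filter and probe setting. These genes lie in 1 cluster and resemble each other closely, and whether the dimmer probes also read Stfa1 was not tested.

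Genes listed with secreted or antimicrobial products of the upper epidermis were next. Of 6 genes listed with the secreted spinous proteins, 2 were above 2-fold (33.3%, against 3.73% of all genes). Calm4 (an epidermal calmodulin-like protein) stood at 9.11 without and 10.82 with DAPT. Krtdap, which encodes keratinocyte differentiation-associated protein, stood at 7.54 and 8.76, while Sbsn, encoding suprabasin, was lowest at -0.03. Of 11 antimicrobial genes, 5 passed 2-fold upward (45.5%, against 3.73% of all genes) and 0 downward, and the median of the 11 was 0.69. Defb4, a beta-defensin, stood at 5.03 without and 7.49 with DAPT on day 4, and was not detected without DAPT on day 7, with 6.39 on the DAPT array. Ltf, encoding lactoferrin, was 3.47-fold higher with DAPT on day 4, with its other probe at 1.15. Defb14 was 3.36-fold, Defb6 2.60-fold and Lyz1, at 6.78 and 7.78, just over 2-fold higher, whereas Lcn2, encoding lipocalin, differed by -0.45. Of 12 S100 genes 3 were higher (25%, against 3.73% of all genes). They were S100a9 and S100a8, whose products form calprotectin, by 1.93 and 1.13, and S100a6 by 1.02. On day 7 these 3 genes differed by -0.14, -0.17 and -0.38.

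Keratins and adhesion genes differed less. Of 8 basal keratinocyte genes, 2 were above 2-fold (25%, against 3.73% of all genes). These were Col17a1, at 9.62 without and 10.66 with DAPT, and Krt15, at 6.02 and 7.06. The 2 other probes of Col17a1 differed by 0.22 and 0.64. Krt5, the keratin partner of Krt14, stood at 8.11 and 9.11, just short of 2-fold, and Itgb4, an integrin of hemidesmosomes, was lowest at -0.37. Of 9 spinous and stress keratins only Krt13 passed, at least 2.65-fold higher with DAPT, while Krt10 differed by 0.75, Krt6a by -0.56 and Krt17 by 0.08. Krt19, a keratin of simple epithelia, was 2.83-fold lower, at 8.06 without and 6.56 with DAPT, whereas Krt8 differed by 0.12, Krt18 by -0.10 and Krt20 by 0.27. No gene reached 2-fold among 13 integrin subunits, from Itga7 at -0.73 to Itgav at 0.78, or among 9 desmosome genes, from Pkp3 at -0.39 to Dsc2 at 0.86. Of 7 laminin and hemidesmosome genes only Col17a1 passed. Of 17 tight junction genes Cldn16, a claudin, was 2.36-fold higher and Cldn1 lowest at -0.78. The 6 connexins, which form gap junctions, lay between 0.08 for Gja1 and 0.71 for Gjb1, and 3 hair follicle keratins between 0.15 for Krt75 and 0.46 for Krt26. Of 17 barrier lipid genes, Pnpla1, an enzyme of skin ceramide synthesis, was lower, by -1.05, and Elovl4, which makes very long fatty acids, highest at 0.89. Klk7, a protease of skin shedding, was 3.50-fold higher with DAPT, while St14, which encodes matriptase, was 3.43-fold lower, with its other probe at -0.67. Of 21 epidermal transcription factors, Tfap2c and Gata3 were 2.40-fold and 2.13-fold higher (9.52%, against 3.73% of all genes). Runx1 was lowest at -0.70. The 2 other probes of Tfap2c ran from 0.01 to 0.67.

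**Figure D3:**
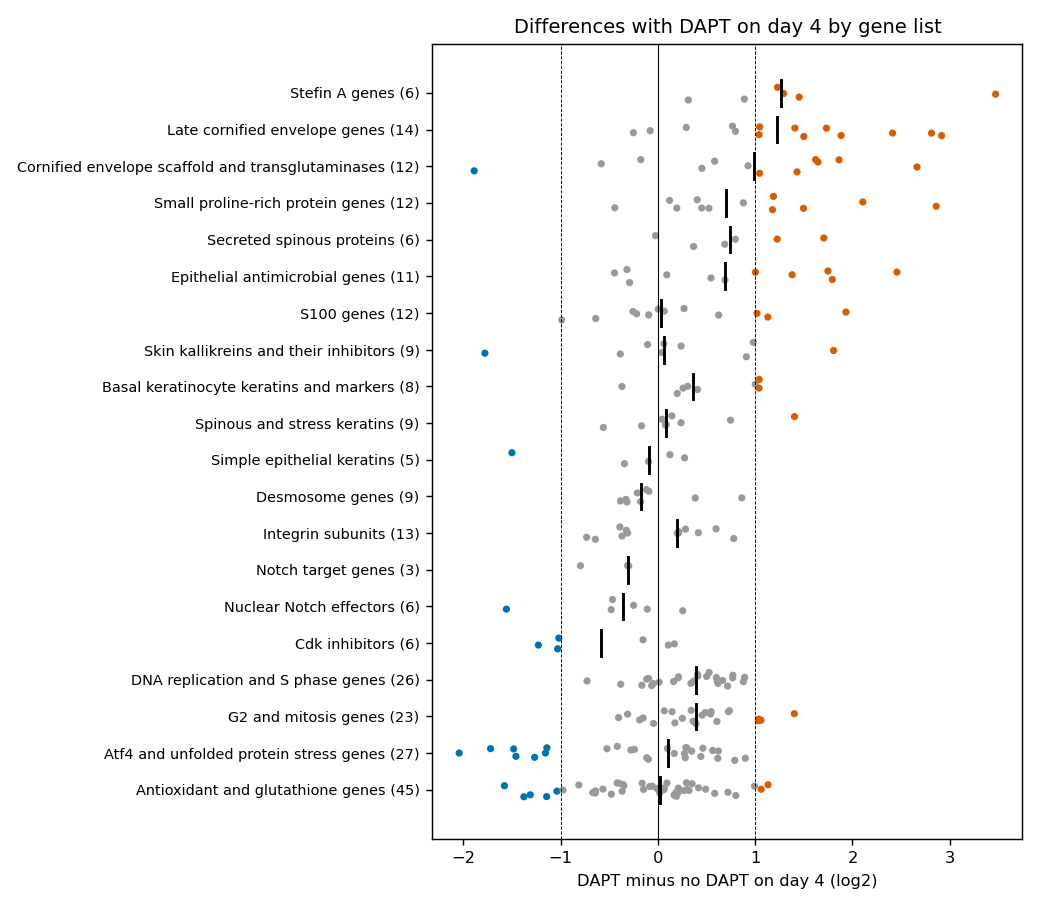
Difference with DAPT on day 4 (log2) of each tested member of 20 gene lists (points; orange at least 2-fold higher, blue at least 2-fold lower), with the median of each list as a black bar and the number of tested members in parentheses. The stefin, Lce and envelope scaffold lists have the highest medians, at 1.26, 1.23 and 0.99, and the Cdk inhibitors the lowest, at -0.59.

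Genes outside the epidermal lists also stood among the highest. Prl2c1 had a log2 signal of 8.98 without and 11.36 with DAPT on day 4, and of 9.39 and 9.83 on day 7. It belongs to the proliferins, placental hormones of the prolactin family that were found in growing mouse fibroblasts. Prl2c5 was 4.36-fold, Prl2c4 2.69-fold, Prl2c3 2.38-fold and Prl2a1 2.32-fold higher. Thus 5 of 10 tested genes of the family (50%, against 3.73% of all genes) were above 2-fold and 0 below. This family was singled out after its values had been seen, and its members resemble each other closely. Krt23, an epithelial keratin, stood at 5.79 and 7.93 on day 4. Aqp1, a water channel, stood at 7.79 and 9.87, though 2 other probes differed by 0.65 and 0.70. Pam, a peptide-amidating enzyme, stood at 7.99 without and 9.99 with DAPT on day 4, and at 10.31 and 10.11 on day 7. Zxda, a zinc finger gene, stood at 8.31 and 10.38 on day 4 and at 10.48 and 9.77 on day 7. For both genes the untreated day 4 array was the lowest of the 4. Akr1c18, a steroid-metabolizing reductase, was 3.69-fold higher with DAPT on day 4.

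**Figure D4:**
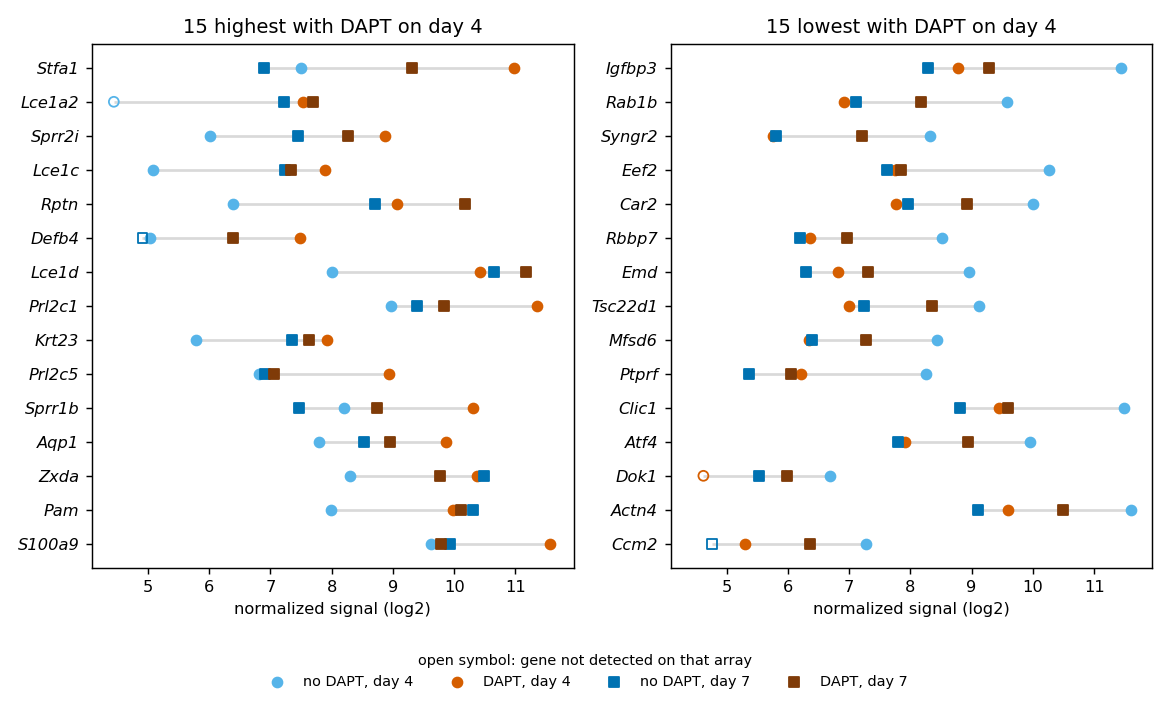
Normalized log2 signal of the 15 highest and 15 lowest genes on the 4 arrays (circles day 4, squares day 7; blue without DAPT, orange and brown with DAPT; open where the gene was not detected). Among the lowest genes the untreated day 4 array is the highest point in each row, and among the highest genes the day 4 DAPT array lies within or above the day 7 values for most.

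The lowest genes belonged to no single pathway. Igfbp3, which binds insulin-like growth factors outside the cell, had a log2 signal of 11.43 without and 8.77 with DAPT on day 4, and of 8.29 and 9.28 on day 7. Eef2, the elongation factor that moves the ribosome along the message, stood at 10.26 and 7.75 on day 4 and at 7.61 and 7.85 on day 7. The 2 other probes of Eef2 differed by -2.51 and -2.32, close to the -2.51 of the probe used. Syngr2, a vesicle membrane protein, stood at 8.32 and 5.76 on day 4, with 2 other probes at -2.30 and -2.21, and at 5.81 and 7.21 on day 7. In all 3 genes the untreated day 4 array was the highest of the 4.

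Other probes did not always repeat a low value. Rab1b, a GTPase of transport from the endoplasmic reticulum to the Golgi, was 6.33-fold lower by the probe used, and its other probe differed by 0.12. Car2, a carbonic anhydrase, was 4.73-fold lower by the probe used and 1.16 higher on the log2 scale by the other. Rbbp7, a histone-binding protein, differed by -2.16, with 3 other probes from -2.08 to 0.04. Emd, encoding emerin of the inner nuclear membrane, differed by -2.14 and its other probe by -1.91, and Actn4, an actin cross-linker, by -2.00 with others from -2.10 to -1.10. Tsc22d1, Mfsd6, Ptprf, Clic1, Atf4, Dok1 and Ccm2, the rest of the 15 lowest genes, had no other detected probe and differed by -2.11 to -1.97.

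In the 2122 genes with more than 1 probe detected on both arrays, the differences of the probes varied with an SD of 0.499 within a gene. Of the 103 lower genes with another probe, the other probes had the same sign in 94 (91.3%) and were themselves at least 2-fold lower in 41. Of the 68 higher genes with another probe, the sign was the same in 51 (75%) and 6 were at least 2-fold higher. The median of the other probes was -0.74 for the lower genes, where the probe used gave -1.23, and 0.19 for the higher ones, where it gave 1.16. Over the 2121 tested genes with another probe, the other probes were above 0 in 902 (42.5%). Their median was -0.11 where the probe used gave 0.06, so other probes lay lower in general. The shares of 91.3% and 75% therefore start from different baselines. Most of the highest epidermal genes had no other detected probe. Those of Rptn, Cdsn and Ltf were at least 2-fold higher too, those of Lce3b differed by 0.63 and 1.34, and those of Col17a1 and Tfap2c were under 2-fold. A mean over all probes of a gene, undetected ones included, brought further calls under 2-fold, among them Rbm3 at -0.63, Tgfbr3 at 0.78, Tgfbi at 0.59, Eif3b at -0.59, Egln1 at -0.75 and Lyz1 at 0.33.

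The day 7 arrays share no array with those of day 4. Of the 370 higher genes, 353 were tested on day 7, of which 116 (32.9%) were above 0 there, with a median of -0.16, 19 at least 2-fold higher and 3 at least 2-fold lower. Of the 352 lower genes, 343 were tested, of which 292 (85.1%) were above 0 on day 7, with a median of 0.50, 47 at least 2-fold higher and 2 lower. Among all genes tested on both days 43.5% were above 0 on day 7. Over all 9705 genes of that day, 1.62% were at least 2-fold higher and 0.464% at least 2-fold lower, together 2.08%. Most of the lower genes of day 4 thus had the other sign on day 7. With median scaling, 62.9% of the higher, 91.4% of the lower and 72.1% of all genes were above 0 on day 7. The untreated day 4 array was the lowest of the 4 arrays in 324 (87.6%) of the higher genes and the highest in 342 (97.2%) of the lower ones. Over all genes the shares were 37.6% and 29.3%, which is not a like baseline. A call already requires that array to lie at least 2-fold below or above the other day 4 array, which raises the shares of called genes. The part of that array in these calls was not tested.

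**Figure D5:**
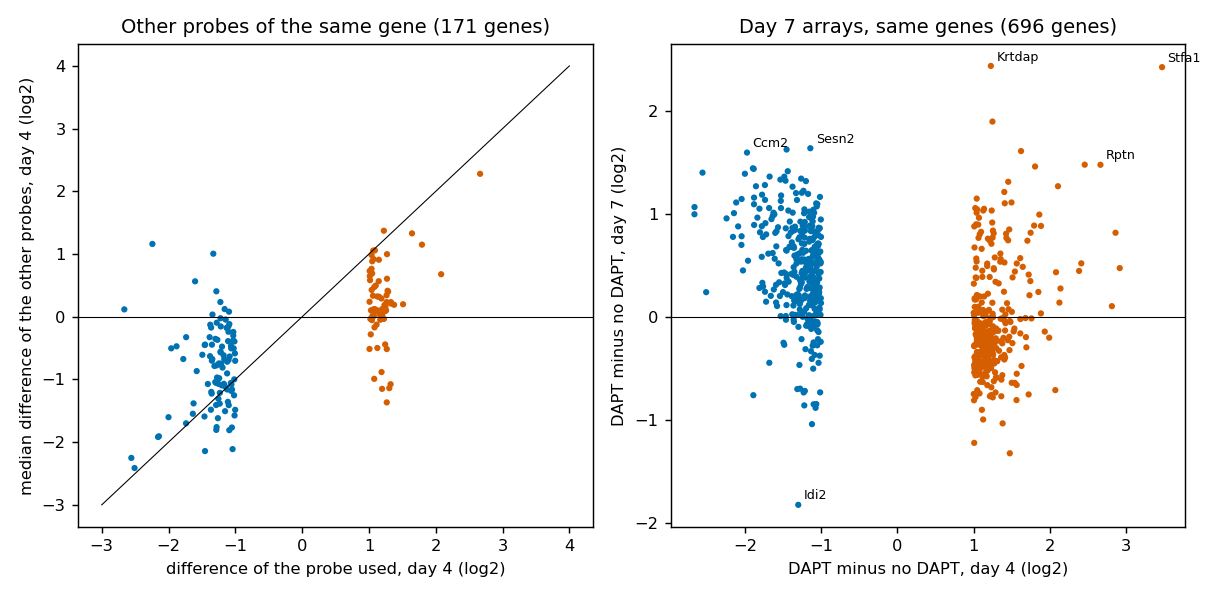
For genes at least 2-fold higher (orange) or lower (blue) with DAPT on day 4: left, the median difference of their other probes on day 4 (vertical axis) against that of the probe used (horizontal axis), both log2, with the line of equality, for genes not given as a bound; right, the difference on day 7 (vertical axis) against that on day 4 (horizontal axis). Most blue points lie below 0 on the left and above 0 on the right, while Stfa1 and Rptn are above 0 on both days.

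Some epidermal genes had the same sign on both days, and those given here are examples. Ivl was lower with DAPT on both, at -1.89 and -0.76. Rptn differed by 2.66 on day 4 and 1.48 on day 7, Cnfn by 1.62 and 1.61, Krtdap by 1.23 and 2.44, Klk7 by 1.81 and 1.46, and Sprr1b by 2.11 and 1.27. The medians of the Lce, Sprr and scaffold lists on day 7 were 0.45, 0.16 and 0.33, against a median over all genes of -0.05. Whether the lists differed between the days was not tested.

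Most Notch genes were under 2-fold, as were most of all genes tested, of which 7.28% passed it either way. At least 2-fold lower were 1 of 6 gamma-secretase and sheddase genes (16.7%), 1 of 10 modifiers (10%) and 1 of 6 nuclear factors (16.7%). Over all genes 3.55% were lower. No gene of the Notch lists was at least 2-fold higher. The 3 detected Notch targets were all below 0, at a median of -0.31, and none reached 2-fold. With median scaling their median was -0.60 and Hes1, at -1.13, passed 2-fold. Hes1, a transcriptional repressor, had a log2 signal of 8.20 without and 7.40 with DAPT on day 4, and of 7.59 and 7.72 on day 7. Nrarp, a feedback inhibitor of Notch, stood at 8.41 and 8.11 on day 4 and at 8.39 and 7.49 on day 7. Hey1 was detected without DAPT only and differed by -0.31, which is the median of the list. It was tested only because the untreated array detected it, which favours a lower value with DAPT. The sign of Hey1 therefore does not show the direction of the list. The untreated day 4 array was the highest of the 4 for Hes1, and the other 3 arrays lay between 7.40 and 7.72.

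Of the receptors, Notch1 stood at 6.94 and 6.70 on day 4, Notch3 at 6.84 and 6.55 and Notch4 at 6.29 and 5.49. Of the ligands, Jag1, the brightest, stood at 9.69 and 9.90, Dll1 at 5.57 and 5.94 and Dll3 at 5.70 and 6.68. Jag2 was detected without DAPT only, at 4.85 against 4.71. No receptor or ligand reached 2-fold, though Notch4 did with median scaling, at -1.09, and Dll3 with the day 4 arrays normalized alone, at 1.01. Among subunits of gamma-secretase, Aph1a was 3.51-fold lower with DAPT, at 8.07 and 6.26, or by -0.92 on the log2 scale with the mean over its probes, and its relative Aph1b stood at 8.08 and 7.81. Ncstn, encoding nicastrin, differed by 0.04, Psenen by 0.04 and Psen2 by 0.47, and Adam17, a sheddase, by 0.40. Snw1, a nuclear coactivator of Notch that also belongs to the spliceosome, was not detected with DAPT and at least 2.94-fold lower, and it stood at 5.25 and 5.77 on day 7. The other nuclear factors, Maml1, Maml2, Spen, Kat2b and Ep300, differed by 0.25 to -0.48. Rfng, a fringe enzyme that adds sugars to Notch receptors, was at least 2.03-fold lower, and the other 9 modifiers lay between -0.57 for Numb and 0.66 for Dtx3.

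A motif of RBPJ, GTGGGAA on either strand, was in the promoters of 9.60% of the higher and 5.59% of the lower genes that had an entry, against 6.06% of the tested genes and 6.39% of all promoters. It was in 2 of 10 Sprr and 2 of 13 Lce promoters. An overlap between the 2 motifs was not looked for. The Nrarp promoter did not hold these letters in the 300 bases searched.

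Of 6 detected Cdk inhibitors, 3 were at least 2-fold lower with DAPT (50%, against 3.55% of all genes) and 0 higher. Cdkn1a, which encodes p21, had a log2 signal of 13.57 without and 12.55 with DAPT on day 4, and of 12.92 without DAPT on day 7, where the DAPT array was 0.07 higher. Its 2 other probes differed by -1.75 and -0.76. Cdkn2a, the Ink4a and Arf locus, stood at 7.66 and 6.43 on day 4 and at 8.35 and 7.61 on day 7, and its other probe differed by -0.76 on day 4. Cdkn2d was 2.04-fold lower. None of the 3 calls held under every setting. Cdkn1a differed by -0.81 with median scaling, and Cdkn2a by -0.97 and Cdkn2d by -0.85 with an offset of 50. Cdkn2b at 0.17, Cdkn2c at 0.11 and Cdkn1c at -0.15 differed little. For Cdkn1a the untreated day 4 array was the highest of the 4, and for Cdkn2a it lay within the day 7 values of 7.61 to 8.35 while the DAPT array was low.

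Genes of cell division passed 2-fold upward only in part of the lists. Of 23 genes of G2 and mitosis, 4 passed upward (17.4%, against 3.73% of all genes) and 0 downward, and 18 were above 0, against 5533 of all 9913 genes. Their median was 0.39, and 0.20 with median scaling. The 4 were Cep55, a protein of cell abscission, at 2.64-fold, Ube2c, a ubiquitin-conjugating enzyme of mitotic exit, at 2.09-fold, Kif11, a spindle motor, at 2.05-fold, and Cks1b, a Cdk subunit, at 2.05-fold or more. Cdk1 differed by -0.40, at 9.31 without and 8.91 with DAPT. Of 26 replication genes 0 reached 2-fold, with a median of 0.39 that was 0.07 with median scaling, from Mcm2 at -0.73 to Pold1 at 0.89. Of 15 G1 regulators only E2f3, a transcription factor of S phase entry, passed, at 2.05-fold higher, and Ccnd2, a D-type cyclin, was lowest at -0.95. Btg2, an antiproliferative early gene, was 3.09-fold higher, at 5.97 and 7.60 on day 4, beside 7.92 and 7.44 on day 7, and Egr1, an early response gene, 2.11-fold. They were the 2 of 22 immediate early genes to pass, and Junb was lowest at -0.87. Of 29 p53 target and apoptosis genes 1 was higher, Btg2, and 2 lower, Cdkn1a and Sesn2.

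Of the 4 classical reprogramming factors, only Sox2 reached 2-fold. Sox2 stood at 6.60 without and 5.49 with DAPT on day 4, and at 4.91 and, not detected, at 4.62 on day 7. With the mean over its probes the day 4 difference was -0.33. Klf4 stood at 8.02 and 8.56 on day 4, with 2 other probes at -0.44 and -0.30. Myc differed by -0.08 and Pou5f1, detected on 1 of the 2 arrays, by -0.01. The labels do not say whether the probes read the transduced copies. Of 29 chromatin regulators, Ezh2, the methyltransferase of the Polycomb complex, was 2.23-fold lower and Mbd3, a subunit of the NuRD complex, 2.16-fold lower. With the mean over its probes Ezh2 differed by -0.34. Rnf2, a Polycomb ubiquitin ligase, was the highest of these genes at 0.89. Among the 9 detected pluripotency genes 0 reached 2-fold, from L1td1 at 0.92 to Dnmt3l at -0.42.

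Growth factor genes differed singly. Besides Igfbp3, Igf1r, the receptor of insulin-like growth factors, was 2.32-fold lower with DAPT. Thus 2 of 12 genes of that system were lower (16.7%, against 3.55% of all genes) and 0 higher, with Igfbp4 highest at 0.36. Hbegf, an EGF receptor ligand, was 2.61-fold lower, at 8.88 and 7.50, and was the only 1 of 10 EGF family genes to pass, with Btc, encoding betacellulin, highest at 0.53. Tgfbr3, the betaglycan co-receptor, was 2.74-fold higher and Tgfbi, a secreted target of TGF-beta, 2.10-fold higher, while Inhba, the activin subunit, was 2.38-fold lower. Porcn, which loads lipid onto Wnt proteins, was 2.07-fold lower, with its other probe at -1.77, and was the only 1 of 26 Wnt pathway genes to pass, with Wnt10a highest at 0.78. Serpinb2, a plasminogen activator inhibitor, stood at 13.16 without and 12.04 with DAPT and at 9.49 and 10.13 on day 7. Serpinb9b was at least 2.12-fold higher.

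Stress response genes held several of the lower values. Of 27 genes of the Atf4 and unfolded protein responses, 7 were at least 2-fold lower (25.9%, against 3.55% of all genes) and 0 higher. The median was nevertheless 0.10, and -0.11 with median scaling. Atf4, the transcription factor of the integrated stress response, stood at 9.95 without and 7.91 with DAPT on day 4, and at 7.79 and 8.94 on day 7. Calr, encoding the chaperone calreticulin, was 3.30-fold lower, and Pdia3 and Pdia4, which encode disulfide isomerases of the endoplasmic reticulum, were 2.75-fold and 2.41-fold lower. Phgdh, the entry enzyme of serine synthesis, was 2.80-fold lower, Ddit3, the stress factor Chop, 2.23-fold with its other probe at -1.11, and Sesn2, a sestrin, 2.21-fold. Chac1, a target of Atf4, ran the other way at 0.90. Of 45 antioxidant genes 5 were lower (11.1%, against 3.55% of all genes) and 2 higher (4.44%, against 3.73%). The lower ones were Nqo1, a quinone reductase, by -1.58, Gss, glutathione synthetase, by -1.38, Hmox1, heme oxygenase, by -1.31, Prdx2, a peroxiredoxin, by -1.14 with its other probe at -0.05, and Gpx7 by -1.04. Txnrd1, thioredoxin reductase, was 2.19-fold and Gsta2, a glutathione transferase, 2.09-fold higher.

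Members of the glycolysis and sterol lists past 2-fold were mostly lower, but not the lists as a whole. Their medians were -0.05 and 0.13, and 9 of 24 and 16 of 28 members were above 0. Of 24 glycolysis and hypoxia genes 3 were lower (12.5%, against 3.55% of all genes) and 1 higher. Pgam1 and Pfkp, glycolytic enzymes, were 2.30-fold lower each, Egln1, an oxygen sensor, at least 2.20-fold lower, and Ndrg1 2.85-fold higher with its other probe at 0.20. Of 28 sterol and fatty acid synthesis genes 3 were lower (10.7%) and 0 higher. The lower ones were Idi2 at 2.46-fold, Nsdhl at 2.38-fold and Fads2 at 2.49-fold or more, while Elovl5, a fatty acid elongase, was highest at 0.88. With the mean over probes Pfkp differed by -0.54 and Nsdhl by -0.73. Idi2 was also lower with DAPT on day 7, by 1.83 on the log2 scale at 8.22 and 6.39. Of 177 solute carriers, 10 were at least 2-fold higher (5.65%, against 3.73% of all genes) and 1 lower. The list median was 0.15, and -0.03 with median scaling. The highest carriers were Slc38a4, an amino acid transporter, at 3.35-fold, Slc39a1, a zinc transporter, at 2.95-fold, and Slc27a3, a fatty acid transport protein, at 2.76-fold. The others were Slc1a1, Slc1a3, Slc2a5, Slc4a3, Slc11a1, Slc15a3 and Slc50a1, from 2.15-fold to 2.28-fold, of which Slc2a5 is a bound. Slc25a11, a mitochondrial carrier, was 2.05-fold lower.

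Genes of translation, respiration and transport fell on both sides of 0. Of 58 cytosolic ribosomal protein genes 3 were higher (5.17%, against 3.73% of all genes) and 1 lower. Rpl39l, the form of Rpl39 known from testis, was 3.22-fold and Rpl22l1 2.30-fold higher, Rpl17 at least 2.01-fold, and Rps2 was lower, at 15.07 without and 13.69 with DAPT on day 4 and at 13.17 and 14.18 on day 7. Of 73 respiratory chain genes 6 were higher (8.22%, against 3.73% of all genes), from 2.06-fold for Uqcrb to 3.23-fold for Cox6b2. Atp5k, Ndufb2, Ndufb4 and Ndufc1 lay between them, and Atp5pb was 2.18-fold lower. Of 53 translation factors, Eef2, Eif3b and Eif2b1 were lower and Eif4g2 and Eif4e higher. Eif4g2 was 2.47-fold higher by the probe used while its other probe differed by -1.14. Of 70 mitochondrial ribosomal protein genes, Mrps10 was 2.46-fold lower with its other probe at -0.35, Mrpl34 2.40-fold lower, and Mrpl37 highest at 0.90.

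Among 41 proteasome genes, Psme2, an activator subunit, was 3.62-fold and Psmb5, a catalytic subunit, 2.46-fold lower. Psmb7, at 12.33 and 11.33, was just short of 2-fold, and Psmc6 was highest at 0.79. Of 58 Rab, Arf and Arl GTPases, 5 were lower (8.62%, against 3.55% of all genes) and 1 higher. Beside Rab1b these were Arf5 at 3.69-fold, Rab5a, of early endosomes, at 2.36-fold with its other probe at -0.98, Rab12 at 2.32-fold and Arf3 at 2.15-fold, while Rab9 was 2.04-fold higher. Of 38 Golgi and coat genes, Tmed2, Sec23a and Tmed3 were 2.21-fold, 2.15-fold and 2.06-fold lower (7.89%, against 3.55% of all genes). Golga7 was 2.50-fold higher (2.63%, against 3.73%), with an other probe at -1.08. Of 25 lysosomal genes, Ctsa, a cathepsin, was at least 3.72-fold and Lamp1, a membrane glycoprotein, 2.29-fold lower (8%, against 3.55% of all genes). Man2b1, a mannosidase, was highest at 0.61. Of 42 chaperone and cold shock genes, Rbm3, a cold-induced RNA-binding protein, was 3.32-fold lower, at 12.28 and 10.55, and Hspb8 2.10-fold lower. Dnajb6 was 2.41-fold higher by the probe used, and its other probe differed by -1.37. Of 44 splicing genes, Hnrnpk was 3.04-fold lower with its other probe at 0.56, and Srsf5 just past 2-fold lower, at 9.92 and 8.91, with its other probe at -1.48, while Hnrnpdl was highest at 0.98.

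Matrix, immune and other cell type lists had 2 members or fewer past 2-fold each. Of 21 collagen genes only Col17a1 reached 2-fold, and Col1a1 differed by -0.94. Of 25 metalloproteinase and Timp genes, Adamts1 was at least 2.60-fold lower and Mmp19 highest at 0.83. Of 31 interferon response genes only Ifi35 passed, at 2.01-fold lower, and Rsad2 was highest at 0.85. Of 43 cytokine genes Ccl25, at 1.27 with its other probe at -0.52, and Il6, at 1.01, passed, and Cxcl10 was lowest at -0.96. Pmel, a melanosome protein, was not detected with DAPT and at least 2.17-fold lower, while Tyrp1, at 8.46 and 8.50, and Dct, at 5.96 and 6.23, differed by less than the SD between probes, and Ednrb was the highest melanocyte gene at 0.62. Fbln1, a matrix protein of mesenchymal cells, was 2.38-fold higher with other probes from -0.37 to 0.71. Of 20 mesenchymal and fibroblast genes it was the only one to pass, and Fap was lowest at -0.97. Of 11 cadherin and EMT genes only Cdh2, the neural cadherin, passed, at 2.09-fold lower, while Cdh1 differed by 0.46. Among endothelial genes Tek was 2.03-fold higher and Eng 2.16-fold lower. The 3 detected immune cell genes ran from H2-Ab1 at -0.62 to Lyz2 at 0.69. Of 5 detected Merkel and nerve genes only Sox2 passed, with Isl1 highest at 0.55, and the 4 red cell and muscle genes lay between -0.46 for Tnnt3 and 0.20 for Acta1.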

How the data were processed

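RNA of 4 keratinocyte cultures, 1 per group, had been hybridised to 4 Illumina bead arrays. The table deposited without normalization holds an intensity on a linear scale and a detection p-value per probe, per the file headers, and the submitters' processing notes name BeadStudio. The authors' normalized intensity table, whose method the labels leave out, served as an alternative. Groups came from the titles.

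From the non-normalized values, neqc of limma 3.58.1 (R 4.3.3) removed background, inferring negative controls from detection p-values, with 16 as the offset, and quantile-normalized all 4 arrays, giving log2 values of the deposited intensities. Each gene was read by its probe of highest mean signal on the 4 arrays. Tested genes had a detection p under 0.01 on either day 4 array or both. Differences are DAPT minus no DAPT, and calls were made at 2-fold. Probe names came from the platform annotation, whose Entrez identifiers were matched to RefSeq GRCm38.p6. Python 3.11.15 with numpy 2.4.6, pandas 2.3.3 and matplotlib 3.10.9 made the counts and figures, and the counting steps were tested on simulated data.

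The comparison and the 65 gene lists were chosen with earlier results of these data known, and 1 of these lists is not reported here. Genes were named by rule: the 15 highest and 15 lowest, the highest and lowest member of a list, members past 2-fold, and all detected members of the Notch, Cdk inhibitor, reprogramming factor, stefin, Sprr, Lce and scaffold lists. The prolactin family, the epidermal differentiation complex and a few further genes were added after their values were seen. The number of arrays limits the precision, and with 1 array a group no test was run.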

Additional observations from a re-analysis of the deposited data

Results flagged for a closer look

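Of 9259 genes tested on both days, 47 were lower with DAPT on day 4 and higher with it on day 7, by 2-fold or more each time, and 3 went the other way. Among the named genes 17 ran in opposite directions by 2-fold or more on the 2 days, each lower on day 4 and higher on day 7. With 1 array a group this difference between days was not tested.

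The vesicle transport genes Rab1b, Syngr2 and Arf5 differed by -2.66, -2.56 and -1.88 on day 4, and by 1.06, 1.40 and 1.44 on day 7. The other probe of Rab1b differed by 0.12 on day 4. Emd, of the nuclear envelope, stood at -2.14 and 1.01, and the actin cross-linker Actn4 at -2.00 and 1.39. The transcription regulators Tsc22d1 and Atf4 stood at -2.11 and -2.04 on day 4, and at 1.11 and 1.14 on day 7. Phgdh and Sesn2, listed with Atf4, stood at -1.48 and -1.14 on day 4, and at 1.36 and 1.64 on day 7. The scaffold gene Ccm2 stood at -1.97 and 1.59, the lysosomal gene Ctsa at -1.90 and 1.44, both with a bound on 1 day or both. The proteasome activator Psme2 stood at -1.86 and 1.27, the gamma-secretase subunit Aph1a at -1.81 and 1.05, and the ribosomal protein gene Rps2 at -1.37 and 1.01. Pfkp, of glycolysis, stood at -1.20 and 1.32, Ezh2, of the Polycomb complex, at -1.16 and 1.02, and Cdh2, the neural cadherin, at -1.07 and 1.10. The day 7 value of Ezh2 is a bound. Some of the day 4 values fell under 2-fold in other settings. With the mean over probes Rab1b differed by -0.96, Aph1a by -0.92, Ctsa by -0.59, Pfkp by -0.54, Cdh2 by -0.51 and Ezh2 by -0.34. With an offset of 50, Phgdh differed by -0.94 and Sesn2 by -0.69.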

How the results depend on the processing

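The counts of 370 higher and 352 lower genes were 175 and 673 with median scaling (20.6% of calls higher, against 51.2%), 170 and 194 with an offset of 50, 1587 and 1094 at 1.5-fold, and 37 and 57 at 3-fold. They stayed within 1.5 times under the other 7 settings, which were day 4 arrays normalized alone, no further background correction, no detection filter, detection on both arrays, mean over probes, the authors' values and, added after the data were seen, measured differences (378 and 357). Of the 65 list medians, that of the immune cell genes became 0.13 with detection on both arrays, which leaves fewer genes, and that of the stefin A genes 0.67 with an offset of 50. The cause of the other shifts was not tested. Medians of 21 lists changed sign with median scaling, among them those of the Notch receptors, kallikreins, barrier lipids, Atf4 and antioxidant genes, but not those of the Lce, Sprr, stefin and scaffold lists. Dnajb6 reversed, to -0.050, with the mean over probes. Of the named genes past 2-fold, 34 of 80 higher and 40 of 79 lower ones stayed past it under each normalization, filter and probe setting. No paired analysis was possible because each group has 1 array, and for the same reason no array could be left out. Dim genes near the background are the least certain.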

Other observations

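The promoters of the higher genes had less G and C than those of the lower genes. Their median GC content was 58.3% over 302 promoters, against 61.5% over 286 for the lower genes and 60.7% over 8053 for the genes tested with an entry, in the 300 bases around the start. Among 496 tested genes with a promoter GC of 45% or less, 4.84% were at least 2-fold higher and 1.81% lower. Among 2509 genes above 65% GC, 2.75% were higher and 3.99% lower. These values describe 2 arrays and were not tested.

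Chromosome 3 had 38 of 530 tested genes at least 2-fold higher (7.17%, against 3.73% of all genes), and 19 of them lie in the epidermal differentiation complex. Chromosome 16, with the stefin cluster, had 17 of 318 higher (5.35%) and 3 lower (0.943%, against 3.55% of all genes). With the genes in 4 bins of equal size by mean signal, the dimmest bin held 66 higher and 61 lower genes, the next 137 and 108, the one above it 112 and 122, and the brightest 55 and 61.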
